A study of Arabidopsis thaliana with 4 samples.

Results

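The 4 auxin response genes *IAA3* (AT1G04240), *IAA17* (AT1G04250), *HAT2* (AT5G47370) and *GH3.6* (AT5G54510) were examined in the basal stem of *Arabidopsis thaliana*. They are 4 of the 234 genes that the authors called between *msil2/4* and Col-0 inflorescence stems and placed in a table of 156 up-regulated and a table of 78 down-regulated genes. They were taken by locus from these tables, and so were selected on their RPKM difference between the genotypes, which is described here with no test. In all 4 the libraries of the 2 genotypes did not overlap, as in 99.1% of the 234 listed genes, and 99.1% also passed limma at an adjusted p under 0.05 (65.8% higher and 33.3% lower in *msil2/4*), so that neither sets these genes apart. In *msil2/4*, *IAA17* and *GH3.6* were higher, and *IAA3* and *HAT2* were lower, while *IAA3* and *IAA17* are neighbours on chromosome 1.

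Polyadenylated RNA was sequenced in 4 libraries, 2 from *msil2/4* and 2 from Col-0, the wild-type accession. The *msil2/4* plants carry T-DNA insertions in both *MSIL2* and *MSIL4* (alleles *msil2-1* and *msil4-1*), which encode RNA-binding proteins related to animal Musashi, and the labels call this genotype a knockdown. All plants were grown in long days with no treatment, and the basal section of mature stems was taken. Only 1 double mutant line was sequenced. The libraries are described as biological replicates, without saying whether they came from separate cultivations, so p-values measure only the spread between these libraries, which may be partly technical. Levels are in RPKM, read numbers scaled to transcript length and to library size, so they can be set side by side between genes of different length. Neither *MSIL2* nor *MSIL4* is a row of the tables, so the genotype could not be checked on them. None of 9 marker loci for secondary wall, photosynthetic, phloem or epidermal cells is a row either, so the tissue was not checked. In bulk stem RNA, fewer cells of a type and less RNA per cell cannot be told apart.

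Auxin is the hormone that sets growth, vascular patterning and the response of stem tissues to their position. Aux/IAA proteins, the family of IAA3 and IAA17, bind auxin response factors (ARFs) and repress their targets, and auxin brings them to the TIR1/AFB receptors, which mark them for degradation through a short degron. Aux/IAA and GH3 genes and several HD-Zip II genes such as *HAT2* are themselves induced by auxin, so these families hold feedback repressors, enzymes that conjugate auxin to amino acids and transcription factors that act downstream.

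The degron codons are shown first because they are the stretch through which both neighbouring repressors are read by the receptor. Coordinates and gene models are those of the RefSeq annotation of the TAIR10.1 assembly, while the submitters' processing notes name TAIR10 and their tables carry no coordinates. The stretch of IAA3 lies at chr1:1129010-1129136 on the minus strand and that of IAA17 at chr1:1136619-1136976 on the plus strand. Both are spliced coding sequence, 5′ to 3′, and the capitals mark the codons of the degron core, the 5 residues that the receptor pocket holds.

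IAA3: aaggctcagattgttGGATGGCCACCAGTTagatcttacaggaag
IAA17: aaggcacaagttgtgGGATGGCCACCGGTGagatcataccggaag

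Of these 45 bases, 37 were identical between *IAA3* and *IAA17*, and 13 of the 15 core bases were identical. In both genes an intron falls after the first 2 bases of the stretch, with a length of 82 bases in *IAA3* and 313 bases in *IAA17*. The core begins at residue 67 of the 189 residues of IAA3 and at residue 85 of the 229 residues of IAA17. Over their coding sequences the 2 genes shared 69.0% of 564 aligned bases, and their longest common run was 16 bases. None of the 1115 windows of 75 bases in the *IAA3* transcript or of the 1243 in the *IAA17* transcript occurred at a second place in the genome, 75 bases being the read length, so no exact read of that length could come from both repressors. The same held for the 1349 windows of *HAT2* and the 2246 of *GH3.6*.

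The sequences before the genes were read for TGTCTC, the auxin response element bound by ARFs, on both strands of the 1000 bases before each annotated start. They are shown because the 2 neighbours differ here. The *IAA3* stretch lies at chr1:1129940-1130109 on the minus strand, and the *IAA17* stretch, at the same distance from its own start, at chr1:1135658-1135827 on the plus strand. The *HAT2* stretch is at chr5:19218278-19218337 on the minus strand, and that of *IAA30*, a further Aux/IAA gene that was lower in *msil2/4*, is at chr3:22995601-22995650 on the plus strand. Each is given in the direction of its gene, and the capitals mark TGTCTC or its reverse complement GAGACA.

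IAA3: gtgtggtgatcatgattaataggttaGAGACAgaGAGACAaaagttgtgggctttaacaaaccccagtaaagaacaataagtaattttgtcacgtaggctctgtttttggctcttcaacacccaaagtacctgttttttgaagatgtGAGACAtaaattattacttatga
IAA17: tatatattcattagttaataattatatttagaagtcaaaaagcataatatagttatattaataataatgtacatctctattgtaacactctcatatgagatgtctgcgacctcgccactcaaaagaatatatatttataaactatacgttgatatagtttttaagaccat
HAT2: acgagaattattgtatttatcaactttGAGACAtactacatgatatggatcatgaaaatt
IAA30: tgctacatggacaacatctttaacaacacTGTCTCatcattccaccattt

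*IAA3* held 3 matches, at 394, 386 and 273 bases before its start, all on the reverse strand, and *HAT2* held 1, at 303 bases. *IAA30* held 2, at 590 and 56 bases, of which the nearer is shown, and *IAA17*, *GH3.6* and *HAT1*, a relative of *HAT2*, held none in their windows. The element was found in 39.6% of 27443 windows before protein-coding genes and in 91 of the 234 listed genes, or 38.9%, and 3 or more matches were found in 2.15% of all windows. A match is a run of letters and no measured binding. The related element TGTCGG, found in 14.6% of windows, and the HD-Zip II type motif CAATNATTG, found in 3.44%, had no match on either strand before any of the 4 genes. TGTCGG begins with the same 4 bases as TGTCTC, but no 6-base run matches both. *IAA3* has 2 annotated starts 138 bases apart, and distances are counted from the outer one.

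*IAA3*, also called *SHY2*, encodes a repressor known from roots and vascular tissue, and ranked 28 of the 234 listed genes by its mean level in Col-0 and 77 in *msil2/4*. It was at 30.7 and 32.9 RPKM in the *msil2/4* libraries, against 94.3 and 131 RPKM in the Col-0 libraries. Both *msil2/4* libraries were below both Col-0 libraries. The means were 31.8 ± 1.57 RPKM in *msil2/4* and 113 ± 26.1 RPKM in Col-0 (SD, n = 2 each), so that Col-0 was 3.55-fold higher. The nearest pair of libraries of the 2 genotypes still differed 2.87-fold and the widest 4.28-fold. The log2 fold change of RPKM + 1, *msil2/4* over Col-0, was -1.78 (standard error 0.34). The error is from limma, a linear model that draws the variance of each gene towards that of all listed genes. *IAA3* stood at rank 43 of the 78 down-regulated genes by size of change, close to their median of -1.80.

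The *msil2/4* libraries differed from each other 1.07-fold for *IAA3*, the closest agreement of any of the 4 genes in either genotype. The gene spans chr1:1128149-1129689 on the minus strand, and 508 of the 1189 exon bases of the transcript used, or 42.7%, overlap the convergent gene AT1G04230 on the opposite strand. AT1G04230, annotated for an rRNA-processing protein, was in neither table. The sources name a directional library kit, but not whether the counting used strand, so reads of the 2 genes may be mixed over that stretch and the level of *IAA3* is uncertain to that extent. None of the other 3 genes overlaps an annotated gene.

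*IAA17*, also called *AXR3*, encodes a repressor whose stabilized form causes auxin resistance. It was at 14.4 and 7.58 RPKM in the *msil2/4* libraries, against 5.30 and 1.66 RPKM in the Col-0 libraries. The genotypes did not overlap, but the lower *msil2/4* library was only 1.43-fold above the higher Col-0 library, and the widest pair differed 8.67-fold. The means were 10.99 ± 4.82 RPKM in *msil2/4* and 3.48 ± 2.57 RPKM in Col-0 (SD, n = 2 each), a 3.16-fold higher level in *msil2/4*. The log2 fold change was 1.49 (standard error 0.56), at rank 142 of the 156 up-regulated genes. Within a genotype, the 2 libraries differed 1.90-fold in *msil2/4* and 3.19-fold in Col-0. The log2 fold change was 0.87 without Col-0 replicate 2 and 1.07 without *msil2/4* replicate 1, so that 1 library of each genotype carried much of it.

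*IAA17* was also the member nearest to the limit of the tables. The heading of the tables sets that limit at 1.5 on the log2 scale, or 2.83-fold, and the authors' value per genotype was 10.4 in *msil2/4* and 3.64 in Col-0. Members of the same families just outside the limit are not analysed here, since only called genes are listed.

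*HAT2* encodes an HD-Zip II transcription factor that is induced early by auxin. It was at 14.7 and 26.6 RPKM in the *msil2/4* libraries, against 86.0 and 134 RPKM in the Col-0 libraries. The *msil2/4* libraries lay well below those of Col-0, with 3.24-fold between the nearest pair and 9.15-fold between the widest. The means were 20.6 ± 8.42 RPKM in *msil2/4* and 110.0 ± 34.0 RPKM in Col-0 (SD, n = 2 each), so that Col-0 was 5.34-fold higher. The log2 fold change of -2.38 (standard error 0.44) placed *HAT2* at rank 13 of the 78 down-regulated genes. By rank on this scale, which understates changes of low genes, it was the member furthest into its table. By the ratio of means, *GH3.6*, a gene at lower level, differed more, at 5.81-fold. The *HAT2* model, chr5:19216271-19218007 on the minus strand, has 4 exons and a transcript of 1423 bases.

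*GH3.6*, also called *DFL1*, encodes an enzyme that joins auxin to amino acids and so lowers the free hormone. It was at 5.02 and 15.3 RPKM in the *msil2/4* libraries, against 1.54 and 1.95 RPKM in the Col-0 libraries. The genotypes did not overlap, and 2.57-fold lay between the nearest pair. The *msil2/4* libraries themselves stood 3.04-fold apart, while the Col-0 libraries stood 1.27-fold apart. The means were 10.1 ± 7.25 RPKM in *msil2/4* and 1.75 ± 0.290 RPKM in Col-0 (SD, n = 2 each), a 5.81-fold higher level in *msil2/4*. The log2 fold change of 1.85 (standard error 0.54) was at rank 100 of the 156 up-regulated genes. It was 1.14 without *msil2/4* replicate 2 and 2.57 without *msil2/4* replicate 1. *GH3.6* lies at chr5:22130964-22133688 on the minus strand, with 3 exons and a transcript of 2320 bases.

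**Figure D1:**
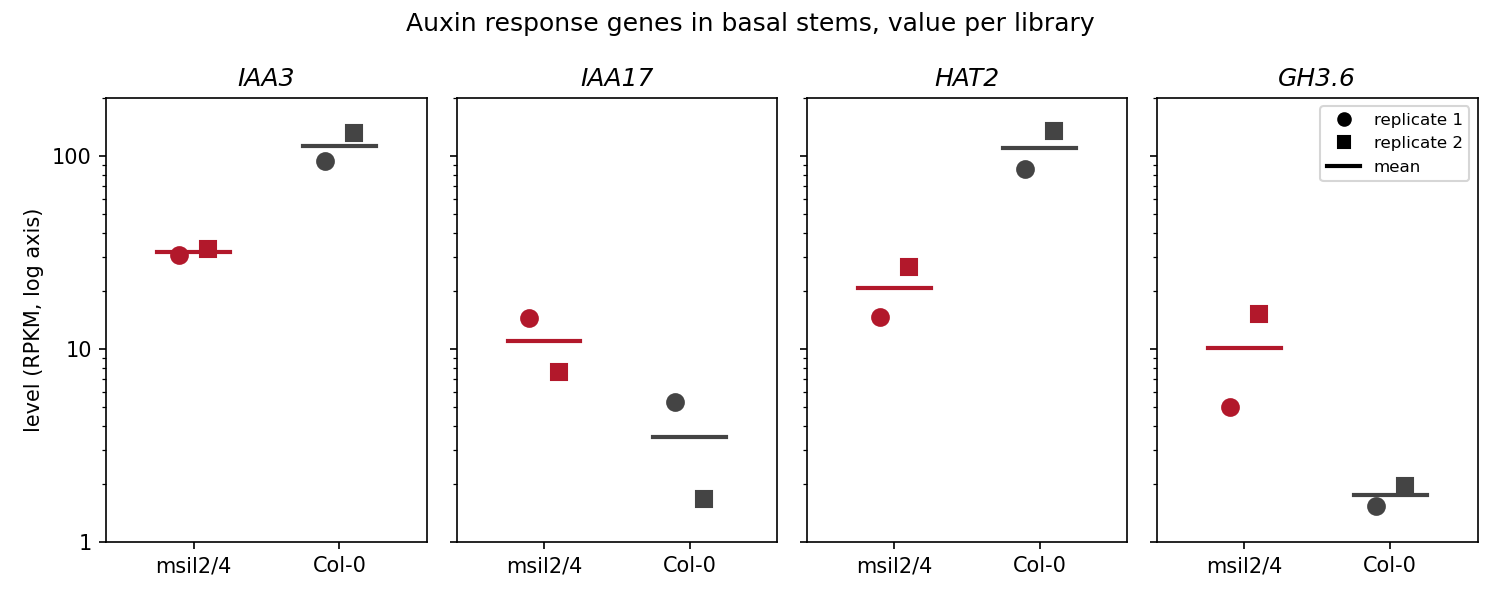
Level of each of the 4 genes in RPKM on a log axis, with *msil2/4* on the left and Col-0 on the right of each panel; circles are replicate 1, squares replicate 2 and bars the mean of 2 libraries. *IAA3* and *HAT2* sit lower in *msil2/4*, *IAA17* and *GH3.6* higher, and the nearest points of the 2 genotypes are those of *IAA17*, 7.58 RPKM in *msil2/4* and 5.30 RPKM in Col-0.

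The fold changes had errors of different size. The standard deviation between libraries of a genotype, pooled on the scale of log2 RPKM + 1, was 0.24 for *IAA3*, 0.52 for *HAT2*, 0.73 for *GH3.6* and 0.75 for *IAA17*, so that the 2 genes at lower level varied more. The limma standard errors were smaller than a gene's own spread would give for *HAT2*, *GH3.6* and *IAA17*, and larger for *IAA3*. At the stated depth of about 30000000 reads a library, and were all of them mapped, the lowest value, *IAA17* in Col-0 replicate 2, would rest on about 66 reads, and *GH3.6* in Col-0 on about 107 and 136. *IAA3* would rest on 1094 or more in each library and *HAT2* on 625 or more. The actual mapped depth is unknown, since the tables used here hold RPKM and not counts.

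*IAA3* and *IAA17* are divergent neighbours, with their starts 6388 bases apart. The annotation places 1 gene between them, the long non-coding RNA AT1G04253, which was in neither table, like the next gene beyond *IAA17*, AT1G04260. *IAA17* runs from chr1:1136078-1138663 on the plus strand in 5 exons, and *IAA3* runs the opposite way in 3 exons.

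**Figure D2:**
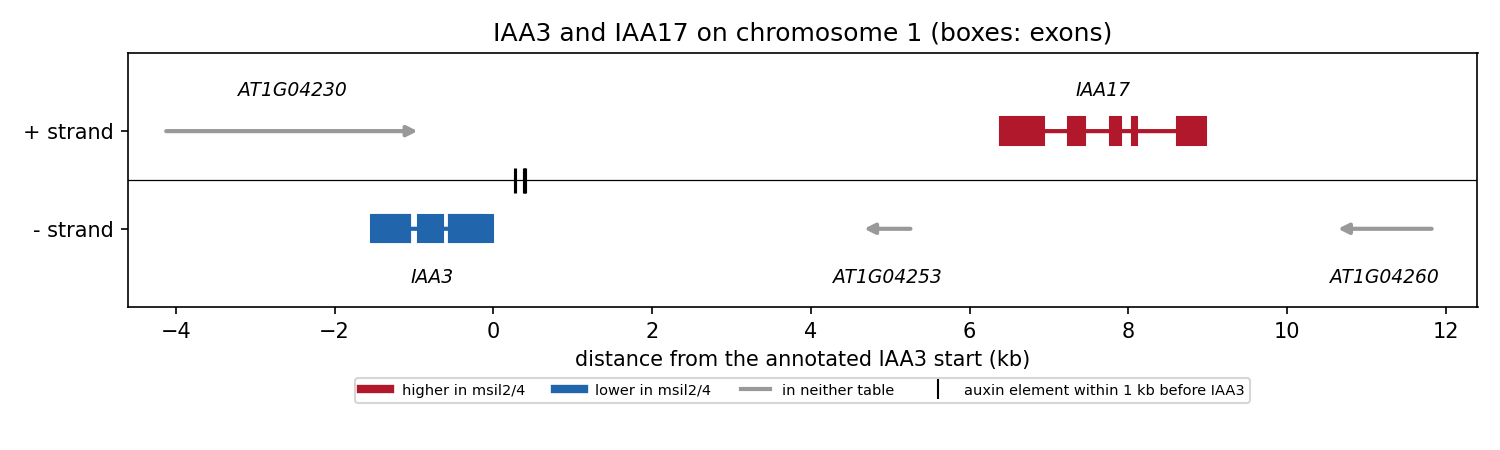
Map of the *IAA3* and *IAA17* neighbourhood to scale, with the distance from the outer *IAA3* start in kilobases on the x axis and the 2 strands above and below the line; boxes are exons, arrows other genes and ticks the 3 TGTCTC matches before *IAA3*, of which a pair merges at this scale. *IAA17*, higher in *msil2/4*, and *IAA3*, lower in *msil2/4*, point away from each other, with their starts 6388 bases apart.

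The contrast between the 2 neighbours was read as their ratio within each library, which does not change with the scaling of a library. *IAA3* was 2.13 and 4.34 times *IAA17* in the *msil2/4* libraries, against 17.8 and 79.0 times in the Col-0 libraries. The *IAA3* transcript was thus at the higher level in all 4 libraries, by a far smaller margin in both *msil2/4* libraries. Since *IAA3* is from the down-regulated and *IAA17* from the up-regulated table, the smaller margin follows from the selection. The level of *IAA3* keeps the uncertainty of its overlap with AT1G04230. The log2 fold change of *IAA17* exceeded that of *IAA3* by 3.27, and by 2.41 to 4.12 with each library left out in turn. The sum of the 2 was 45.1 and 40.5 RPKM in the *msil2/4* libraries, against 99.6 and 133 RPKM in the Col-0 libraries. The difference in *IAA17* was small in RPKM beside that in *IAA3*. The sum did not overlap between genotypes, which mostly reflects the selected difference in *IAA3*.

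Other Aux/IAA genes lie in the same arrangement. The pairs *IAA1* and *IAA14*, with 10732 bases between starts, and *IAA2* and *IAA7*, with 12510, are divergent as well, and all 4 of these genes were in neither table. Among all 234 listed genes, 17 neighbouring pairs lay within 10000 bases. Of these, 14 pairs moved in the same direction and 3 in opposite directions, and *IAA3* with *IAA17* was 1 of the 3. The others were *HSR4*, higher in *msil2/4*, with *XERO2*, lower, and *BT1*, lower, with the pectin lyase-like gene AT5G63180, higher; they are named after their values were seen. *IAA3* with *IAA17* was also 1 of the 2 divergent pairs, the other being the peroxidase genes *PER37* and *PER38*, both higher in *msil2/4*. *IAA3* and *IAA17* were chosen with their position and directions known, so these counts do not show that the pair is unusual.

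**Figure D3:**
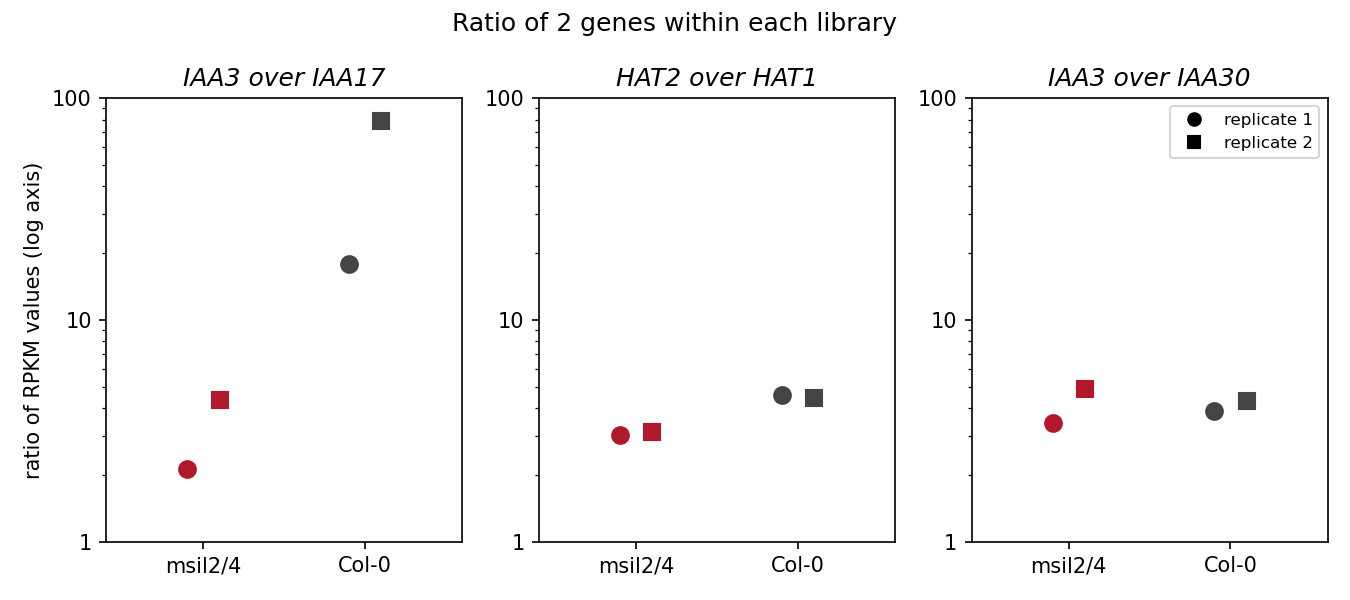
Ratio of 2 genes in RPKM within each library on a log axis, with *msil2/4* left of Col-0; circles are replicate 1 and squares replicate 2. *IAA3* over *IAA17* is 2.13 and 4.34 in *msil2/4* and 17.8 and 79.0 in Col-0. *HAT2* over *HAT1* is 3.05 and 3.14 in *msil2/4* and 4.61 and 4.46 in Col-0, without overlap, and *IAA3* over *IAA30* overlaps between the genotypes.

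The 4 genes lay much closer to each other in level in *msil2/4*. The highest was 6.11 and 4.34 times the lowest in the *msil2/4* libraries, against 61.2 and 80.8 times in the Col-0 libraries. Since the 2 higher genes were from the down-regulated table, this follows from the selection. *IAA3* and *HAT2* were the 2 highest in all 4 libraries. *IAA3* led *HAT2* 2.09-fold and 1.24-fold in the *msil2/4* libraries, and 1.10-fold in Col-0 replicate 1, while in Col-0 replicate 2 it was 0.978 of *HAT2*, so the 2 did not differ in Col-0 beyond their spread. *IAA17* and *GH3.6* had no fixed order. *IAA17* was 2.87 and 0.496 times *GH3.6* in *msil2/4* replicates 1 and 2, against 3.44 and 0.851 times in Col-0 replicates 1 and 2. The ratio exceeded 1 in replicate 1 of both genotypes and fell short of it in replicate 2 of both. The labels do not say that a replicate number marks a shared growth or preparation.

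The families of the 4 genes were then read from 9 lists of auxin genes and their relatives, 125 loci in all. Of these, 7 were in the tables and 118 in neither, and all 7 passed limma at an adjusted p under 0.05, 3 higher and 4 lower in *msil2/4*. The list of other GH3 genes holds those not listed here as enzymes that join auxin to amino acids. Without it, 6 of 114 loci were in the tables, 2 higher and 4 lower. Since 99.1% of all listed genes passed, the passing of all 7 says nothing particular about auxin genes. How many loci of the lists were in the tables is a different count. The tables hold 234 genes, while the annotation gave 27443 windows before protein-coding genes. The share of the lists was not tested against this, and the lists were chosen with earlier results of these data known. The call of *IAA17* was lost without Col-0 replicate 2, without *msil2/4* replicate 1, with a pseudocount of 0.1 in place of 1 and with rescaling to the authors' values per genotype. That of *GH3.6* was lost without *msil2/4* replicate 2, and 6 of the 7 were left in each case. A gene in neither table may have changed by less than the limit, and was not shown to be unchanged.

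Of the 29 Aux/IAA repressors, *IAA17* was higher, *IAA3* and *IAA30* were lower and 26 were in neither table. *IAA30* encodes a member of a small subgroup without the degron, and the core codons were not found in its coding sequence for 172 residues. It was at 8.89 and 6.70 RPKM in the *msil2/4* libraries, against 24.1 and 30.4 RPKM in the Col-0 libraries, with no overlap. Its log2 fold change of -1.69 (standard error 0.34) was close to that of *IAA3*. The ratio of *IAA3* to *IAA30* was 3.45 and 4.91 in the *msil2/4* libraries, and 3.91 and 4.32 in the Col-0 libraries, so that the genotypes overlapped. Both genes are from the down-regulated table, while *IAA3* and *IAA17* are from opposite tables, so the selection itself bears on which of these ratios differs between genotypes.

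Of the 10 HD-Zip II genes, *HAT1* and *HAT2* were lower and 8 were in neither table. *HAT1*, the only other HD-Zip II gene in the tables, shares 77.3% of 822 aligned coding bases with it, and their longest common run was 38 bases, shorter than a read. *HAT1* was at 4.81 and 8.47 RPKM in the *msil2/4* libraries, against 18.7 and 30.0 RPKM in the Col-0 libraries. The log2 fold change was -1.74 (standard error 0.43). Both *msil2/4* libraries were below both Col-0 libraries, as for *HAT2*. *HAT2* was 3.05 and 3.14 times *HAT1* in the *msil2/4* libraries, against 4.61 and 4.46 times in the Col-0 libraries. The pair kept nearly the same ratio within a genotype although each gene varied by more than 1.5-fold between libraries.

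Of the 8 GH3 genes listed as enzymes that join auxin to amino acids, *GH3.6* was higher and 7 were in neither table. Of the 11 other GH3 genes, *GH3.12* was higher and 10 were in neither table. *GH3.12*, also called *PBS3*, acts in salicylic acid synthesis and not on auxin. It was at 7.32 and 12.5 RPKM in the *msil2/4* libraries, against 0.890 and 2.33 RPKM in the Col-0 libraries. Its change was 2.08 on the log2 scale (standard error 0.45). *GH3.6* was 0.686 and 1.23 times *GH3.12* in the *msil2/4* libraries, and 1.73 and 0.837 times in the Col-0 libraries. The 2 transcripts were thus at like levels and the genotypes overlapped in this ratio.

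Of the SAUR genes, short auxin-induced growth genes, the tables named 1, *SAUR54* (AT1G19830). It was at 2.69 and 5.13 RPKM in the *msil2/4* libraries, against 0.730 and 0.290 RPKM in the Col-0 libraries, the lowest levels of any gene named here from an auxin family. Its log2 fold change was 1.67 (standard error 0.40). All of the 6 TIR1/AFB receptors, the 23 ARFs, the 14 genes of auxin synthesis, the 15 of auxin transport and the 9 of auxin oxidation and conjugate hydrolysis were in neither table. Of the genes looked for, those in the tables came from the Aux/IAA, HD-Zip II and GH3 lists and from genes named SAUR, in both directions. Auxin genes outside the 9 lists and not named SAUR were not looked for.

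**Figure D4:**
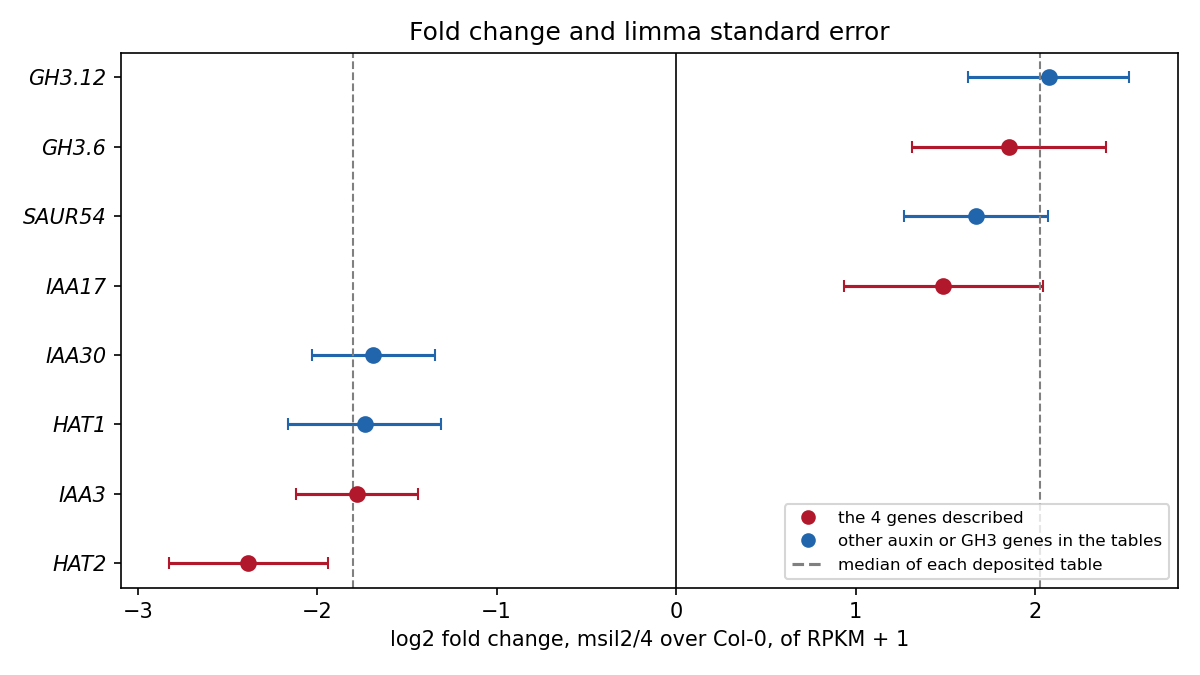
Log2 fold change of RPKM + 1, *msil2/4* over Col-0, with the limma standard error (2 libraries a genotype). The 4 genes are red and the other auxin or GH3 genes in the tables, with *SAUR54*, are blue. Dashed lines are the medians of the 2 tables, 2.03 and -1.80. *HAT2*, at -2.38, lies beyond the median of its table, *IAA3*, at -1.78, close to it, and *GH3.6*, at 1.85, and *IAA17*, at 1.49, short of theirs.

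The listed genes with the most similar course over the 4 libraries were found for each of the 4 by the root mean square distance of log2 RPKM + 1, each profile centred on its own mean, among 233 genes. This is a description over 4 libraries of genes chosen for a difference. Nearest to *IAA3* was AT4G35985, annotated as *P85*, at a distance of 0.0595. It was at 4.71 and 4.75 RPKM in the *msil2/4* libraries, against 16.9 and 21.6 RPKM in the Col-0 libraries. The F-box and phloem lectin type gene *PP2A13*, at 0.117, and *PSK3*, a phytosulfokine peptide precursor gene, at 0.118, followed. *IAA30* was at rank 7.

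Nearest to *HAT2* was *BGAL4*, a beta-galactosidase gene, at 0.0972. *BGAL4* was at 19.1 and 28.8 RPKM in the *msil2/4* libraries, against 102 and 169 RPKM in the Col-0 libraries. *STR15*, a sulfurtransferase-type gene, at 0.264, and the kinase gene *STY46*, at 0.274, followed, with *HAT1* at rank 5. Nearest to *IAA17* were the pectin lyase-like gene AT4G13710, at 0.170, the bHLH factor gene *BHLH93*, at 0.241, and the receptor-like kinase gene *CRK6*, at 0.328. AT4G13710 was at 18.5 and 13.8 RPKM in the *msil2/4* libraries, against 7.33 and 2.89 RPKM in the Col-0 libraries.

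Nearest to *GH3.6* was AT4G29700, at 0.0815, a phosphatase-type gene that the tables annotate as TIR1 and which is not the auxin receptor gene of that name (AT3G62980). AT4G29700 was at 17.8 and 55.7 RPKM in the *msil2/4* libraries, against 8.24 and 8.92 RPKM in the Col-0 libraries. The copper amine oxidase gene *CuAOalpha3*, at 0.0870, and the annexin gene *ANN2*, at 0.123, followed. All 3 were highest in *msil2/4* replicate 2, like *GH3.6*, which follows from their being chosen for the nearest profile.

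**Figure D5:**
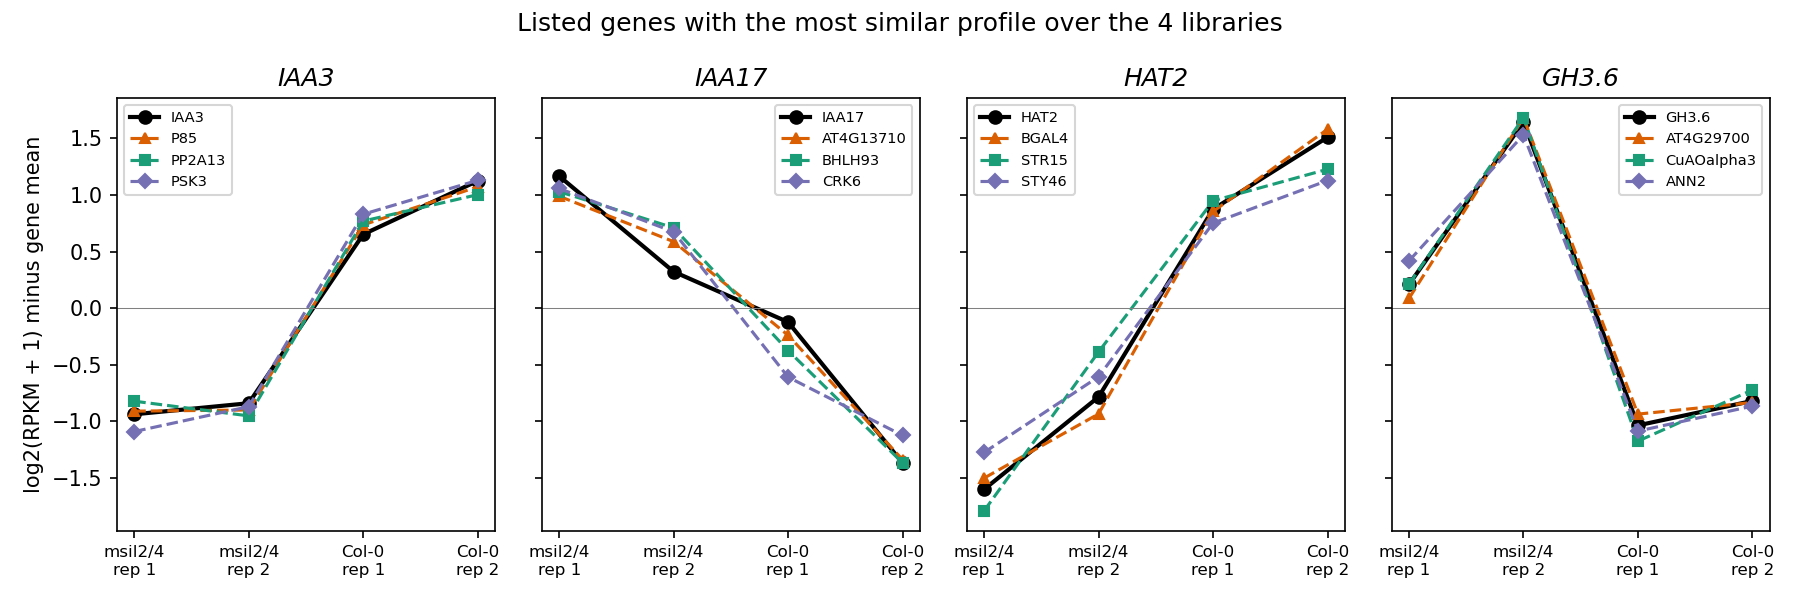
Course of each of the 4 genes (black) and its 3 nearest listed genes (colours) over the libraries, *msil2/4* left of Col-0, as log2 RPKM + 1 minus the mean of the gene. The *GH3.6* group peaks in *msil2/4* replicate 2, and the *IAA17* group is highest in *msil2/4* replicate 1 and lowest in Col-0 replicate 2.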

How the data were processed

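Poly(A) RNA of 2 *msil2/4* and 2 Col-0 stem samples was sequenced as single-end reads of 75 nt, about 30000000 a library as stated. The submitters' processing notes name TopHat2 2.0.7, Bowtie2 2.3.4, Cufflinks 2.2.1 and Cuffdiff with TAIR10. The deposited tables give RPKM per library as computed by the authors, for called genes only. Their heading states a log2 limit of 1.5 and P of 0.05. The paper's methods state a filter on transcripts under 1 RPKM in a library, yet 64 listed genes had such a value. A deposited RPKM value per genotype (the authors' value) was used as given, and the deposited log2 fold change was not used. Log2 RPKM + 1 was fitted with limma 3.58.1 (R 4.3.3) over all 234 genes, *msil2/4* against Col-0, with Benjamini-Hochberg adjustment at 0.05 (two-sided); fold changes on this scale understate those of low genes. Because every gene was selected by the authors on these libraries, calls give only a background share. Counts were not analysed here, so no count test was run. Named genes were the 4 members, genes of the 9 auxin lists or named SAUR in the tables, and the 3 nearest profiles of each member. Members and lists were chosen with earlier results of these data known. Alternatives were a pseudocount of 0.1, a mean of at least 5 RPKM, rescaling to the authors' values, a replicate block and each library left out. The fit was tested on simulated data. Changes there were larger, and spread smaller, than for *IAA17* and *GH3.6*, with no selection of genes, so the simulation does not gauge their calls. Sequences, models and motif shares came from RefSeq TAIR10.1 (Python 3.11.15); where a gene has several transcripts, the oldest accession was used.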

Additional observations from a re-analysis of the deposited data

How the results depend on the processing

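Directions of the 4 genes were kept in all 8 alternatives. This follows from the selection and is no support. Their libraries did not overlap between genotypes, and the authors' values per genotype had the same directions. Of the 234 listed genes, 212 to 234 passed limma in the alternatives that tested all of them, and 188 of the 190 left by a mean of at least 5 RPKM passed. Genes of the 9 lists passing ranged from 6 to 7. The difference between *IAA17* and *IAA3* ranged from 2.41 to 4.12 with each library left out. With each library left out, the log2 fold change ranged from -2.01 to -1.54 for *IAA3*, 0.87 to 2.11 for *IAA17*, -2.79 to -1.98 for *HAT2* and 1.14 to 2.57 for *GH3.6*. *IAA17* passed limma with all libraries and was lost with a pseudocount of 0.1, with rescaling, without Col-0 replicate 2 and without *msil2/4* replicate 1, and *GH3.6* was lost without *msil2/4* replicate 2; the causes were not tested. Rescaling to the authors' values per genotype shifted the median log2 fold change by -0.18, giving -1.96 for *IAA3*, 1.37 for *IAA17*, -2.57 for *HAT2* and 1.69 for *GH3.6*. A replicate block cannot move the fold changes in this balanced design, and the difference between *IAA17* and *IAA3* stayed at 3.27. It gave 234 listed and 7 auxin list genes passing. All 4 genes then had the same standard error of 0.51, so these calls did not rest on each gene's own spread. The labels tie no pair of replicates. The differences between replicates 2 and 1 correlated at 0.07 across the listed genes between genotypes. This does not show whether libraries of the same number shared a growth or preparation. *SAUR54* has no value under the filter of 5 RPKM. With 2 libraries a genotype and no counts, counting error cannot be separated from other spread.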
